A study of Homo sapiens with 4 samples.

Results

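Mucin-type O-glycosylation, the stepwise addition of sugars to serine and threonine of membrane and secreted proteins, was examined in a CD133+ and a CD133- clone of SW620 through 53 glycosyltransferase genes, of 19777 genes with a probe set. The genes were those whose symbol is GALNT, GCNT, B3GNT, ST3GAL, ST6GALNAC or FUT with a number, together with C1GALT1 and its chaperone C1GALT1C1. This choice by symbol also takes in enzymes of other glycans, such as FUT8 of N-glycans and B3GNT5 of glycolipids. Counts over the 53 genes are thus not counts for O-glycosylation alone. Each gene was represented by its probe set with the highest mean signal over the 4 arrays. Of the 53 genes, 46 lay above the lowest 20% of mean signal and were tested, and 7 lay below it. SW620 is an established line from a lymph node metastasis of a human colon adenocarcinoma.

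Both groups were untreated cells of this line, kept in serum-containing L-15 medium. They differed by label in CD133, the surface protein encoded by PROM1, by which cells were sorted with magnetic beads before cloning and once more after expansion. Each group was 1 clone measured on 2 arrays, so CD133 status and clone cannot be told apart, and whether separate cultures were used within a clone is not given in the labels. The p-values thus reflect the spread of these arrays alone, possibly a technical one. Values are log2 signals per probe set. Differences are CD133+ minus CD133- on the log2 scale, and signals of different probe sets are not on a common scale.

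In background terms, GALNT enzymes start the glycan by attaching N-acetylgalactosamine (GalNAc) to the protein, which gives the Tn antigen. C1GALT1 adds galactose to form core 1, GCNT enzymes add branches, and B3GNT enzymes lengthen the chains or form core 3. ST3GAL and ST6GALNAC enzymes cap chains with sialic acid, and FUT enzymes add fucose, which makes blood group and Lewis antigens. In the colon these steps build the glycans of the mucus layer, and truncated or sialylated forms are well-known antigens of colon carcinoma.

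Of the 46 genes tested, 2 fell in CD133+ cells and 0 rose at a limma adjusted p under 0.05. Both that fell, GALNT3 and GALNT7, are GALNT enzymes of the first step. Over all 15821 genes tested, 3.65% passed this threshold, 2.34% lower and 1.31% higher in CD133+ cells, and the 4.35% of the glycosyltransferase genes that passed is near that background. At an unadjusted p under 0.05 there were 9 of the 46 genes, against 20.6% of all genes. Differences were negative in 20 of the 46 genes, against 41.5% of all genes. The median difference was 0.055 over the 46 genes and 0.058 over all genes. The arrays of the groups did not overlap in 24 of the 46 genes, 13 higher and 11 lower in CD133+ cells, against 51.6% of all genes (30.4% higher and 21.2% lower).

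**Figure D1:**
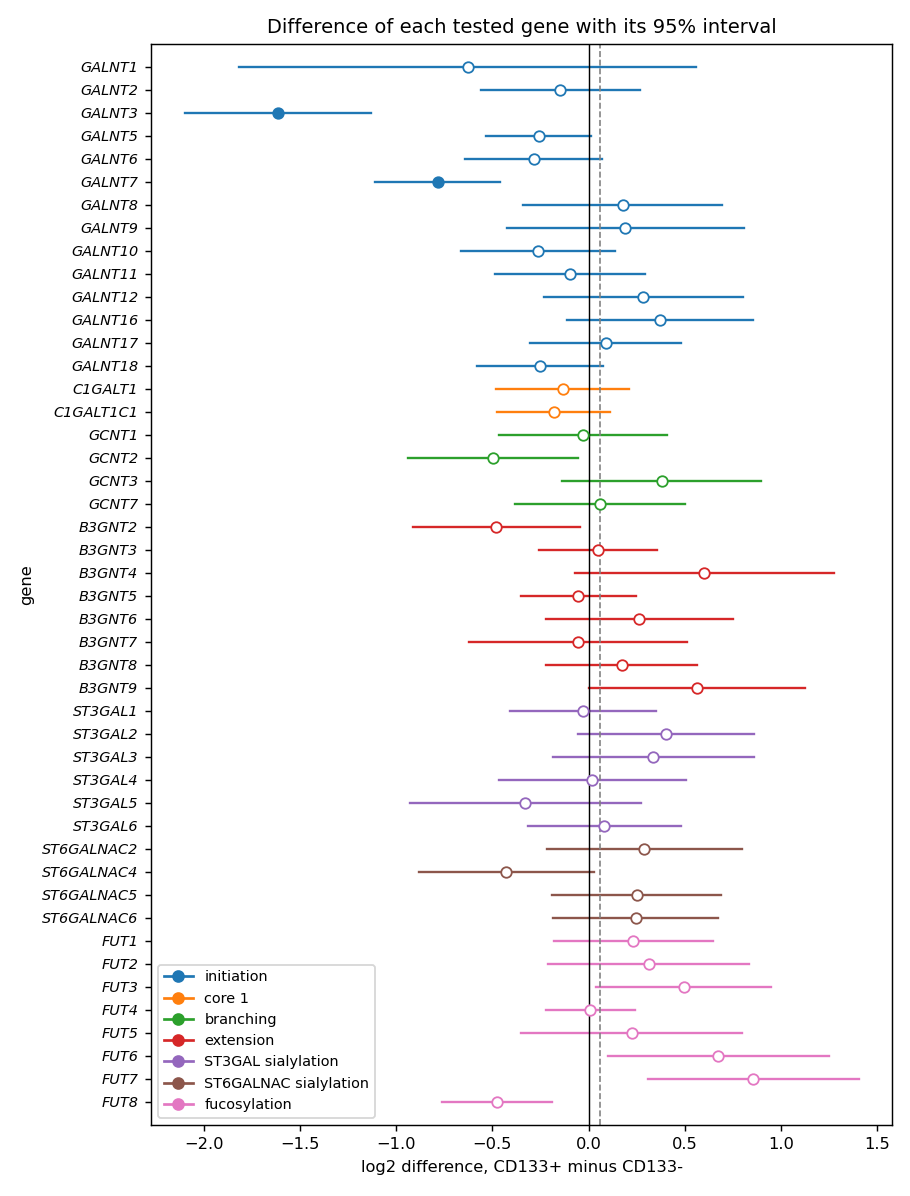
Log2 difference, CD133+ minus CD133-, of the 46 genes tested (x axis), with the 95% interval from the limma fit as a bar, in colours for the enzyme steps. Filled points passed a limma adjusted p under 0.05, and the dashed line is the median of all genes at 0.058. GALNT3 at -1.62 and GALNT7 at -0.79 are filled, and the other 44 are open.

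Because GALNT3 and GALNT7 are the 2 genes that passed, the 250 bases before the RefSeq start of each (GRCh38.p14, written 5′ to 3′ along the gene) are shown. Capitals mark matches, on either strand, to 4 searched motifs, namely the GC box GGGCGG, the CCAAT box, the TATA box as TATAAA, and the E-box CAGGTG.
GALNT3, chr2:165794248-165794497, minus strand: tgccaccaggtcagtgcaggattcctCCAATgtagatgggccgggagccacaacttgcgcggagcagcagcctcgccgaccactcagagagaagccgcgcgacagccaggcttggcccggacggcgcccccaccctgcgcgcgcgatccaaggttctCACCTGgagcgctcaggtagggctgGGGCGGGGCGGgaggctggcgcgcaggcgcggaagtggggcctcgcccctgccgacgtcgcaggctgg
GALNT7, chr4:173168561-173168810, plus strand: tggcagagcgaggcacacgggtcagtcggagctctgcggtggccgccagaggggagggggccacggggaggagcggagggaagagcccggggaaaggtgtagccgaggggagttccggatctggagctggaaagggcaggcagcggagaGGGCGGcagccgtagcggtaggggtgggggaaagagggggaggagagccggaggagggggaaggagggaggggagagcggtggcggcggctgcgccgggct
The GALNT3 stretch held a pair of overlapping GC boxes from -68 to -58, counted from the start, 1 CCAAT box from -224 to -220, and 1 CAGGTG on the opposite strand (read here as CACCTG) from -93 to -88. The GALNT7 stretch held 1 GC box from -101 to -96 and none of the other letters. In 27305 stretches of the same length, 42.3% held a GC box, 33.0% a CCAAT box, 11.1% TATAAA and 17.5% CAGGTG. The shared feature, the GC box, is thus one that many promoters hold. GC content was 71.6% for GALNT3 and 72.4% for GALNT7, against a median of 58.0%. A match is a description of the letters, not a site of binding.

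GALNT3, an enzyme of epithelial cells known for glycosylating the hormone FGF23, had log2 signals of 5.95 and 5.57 on the CD133+ arrays against 7.28 and 7.48 on the CD133- arrays. Both CD133+ arrays lay far below both CD133- arrays. The means were 5.76 ± 0.27 (SD, n = 2) and 7.38 ± 0.14 (SD, n = 2). GALNT3 thus fell by 1.62 on the log2 scale (SE 0.21, limma adjusted p = 0.011), the signal being 3.07-fold higher in CD133- cells. Its other probe set had means of 3.82 and 3.94, close to the lowest level tested of 3.75, and a difference of -0.11 (SE 0.16). With the mean of both probe sets the difference was -0.87 (limma adjusted p = 0.044). GALNT3 kept its call whichever of the 4 arrays was left out, with differences from -1.81 to -1.43.

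GALNT7, which prefers peptides that already carry a GalNAc and so follows up on the work of other GALNT enzymes, had 10.04 and 9.78 on the CD133+ arrays against 10.88 and 10.50 on the CD133- arrays. The groups did not overlap, and the gap between the nearest arrays was small beside that of GALNT3. The means were 9.91 ± 0.18 (SD, n = 2) and 10.69 ± 0.27 (SD, n = 2). GALNT7 fell by 0.79 on the log2 scale (SE 0.14, limma adjusted p = 0.0259), 1.72-fold. Its other probe set had 7.04 and 6.19 against 8.05 and 7.56, again with every CD133+ array below every CD133- array, and a difference of -1.19 (SE 0.30). The call was lost without CD133- replicate 1 (difference -0.60, limma adjusted p = 0.137) and when its probe sets were averaged (-0.99, adjusted p = 0.0817). CD133- replicate 1 had the highest upper quartile of deposited signals, 6.91 against 6.61 to 6.71 on the other arrays. Its part in the result was not tested beyond leaving it out.

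The neighbours of both genes on their chromosomes are given as counts, and the difference between the neighbourhoods was not tested. Over all genes, 41.5% had a negative difference (45.9% with deposited values and 56.7% with centred arrays) and 3.65% passed. In RefSeq gene order, 8 of the 10 tested genes nearest to GALNT3 on chromosome 2, 5 on each side, had negative differences, with a median of -0.59, and 8 of 10 did so under the other scalings too (medians -0.55 and -0.62). Of these, 3 passed. COBLL1 fell by 1.61, GCA fell by 1.10 and STK39 fell by 1.09 (limma adjusted p = 0.0124, 0.046 and 0.0177). COBLL1 is next but one to GALNT3 when only tested genes are counted, and it fell by nearly the same amount. Around GALNT5, another GALNT gene of chromosome 2, 9 of 10 neighbours were negative (6 of 10 with deposited values), with a median of -0.22 and 1 that passed, GPD2, which fell by 0.84 (limma adjusted p = 0.0231). Around GALNT7 on chromosome 4, 6 of 10 were negative (5 of 10 with deposited values), the median was -0.078 and 0 passed. The nearest of them, GALNT7-DT, a transcript that starts beside GALNT7 on the opposite strand, was at 0.082 (SE 0.21) on its probe set with the highest signal, and its other 2 probe sets were at -0.49 (SE 0.18) and -0.25 (SE 0.18).

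**Figure D2:**
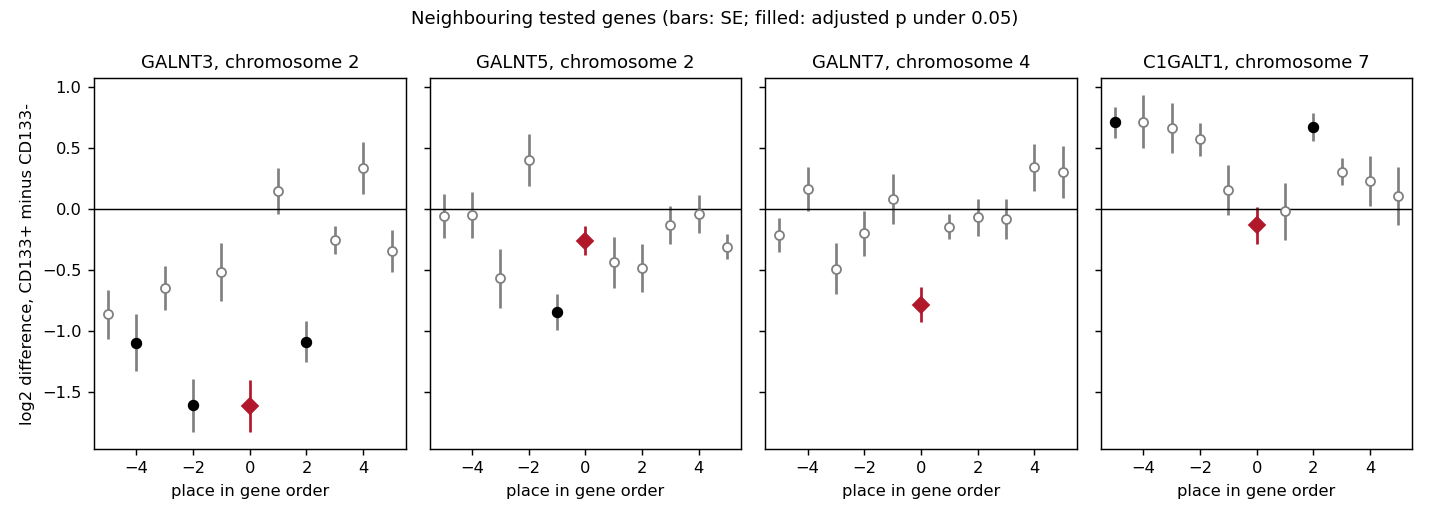
Log2 difference, CD133+ minus CD133- (y axis), of the 5 tested genes on each side of GALNT3, GALNT5, GALNT7 and C1GALT1, by place in RefSeq gene order (x axis). Red diamonds are the named genes at place 0, circles their neighbours, filled where the limma adjusted p is under 0.05, and bars the SE. Neighbours of GALNT3 lie mostly below 0, those of GALNT7 on both sides of it, and those of C1GALT1 mostly above it while C1GALT1 is at -0.13.

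Among the 14 tested GALNT genes 2 fell, 0 rose and 12 did not pass. The share that passed was 14.3%, against 3.65% of all genes (2.34% lower in CD133+ cells). A negative difference was found in 9 of 14, with a median of -0.20. With arrays centred on their medians and with deposited values the count was again 9 of 14, and the medians were -0.37 and -0.29, against -0.051 and 0.028 over all genes. Of all genes, 41.5% were negative after quantile normalization, 56.7% with centred arrays and 45.9% with deposited values, beside 64.3% of the tested GALNT genes. All 7 GALNT genes with a mean signal above the median of all genes (6.78) had negative differences under all 3 scalings. Of all genes above the median level, 47.1% were negative after quantile normalization, 60.9% with deposited values and 73.1% with centred arrays. The 7 GALNT genes were GALNT1, GALNT2, GALNT5, GALNT6, GALNT7, GALNT11 and GALNT18. Without CD133+ replicate 2, GALNT1 was at 0.30 and GALNT11 at 0.048, and the others stayed negative. Of the 7 tested GALNT genes below that level, GALNT3 and GALNT10 were negative and 5 positive, where 35.9% of all genes at or below it were negative after quantile normalization.

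GALNT5 was at -0.26 (SE 0.12), GALNT6, a close relative of GALNT3, at -0.28 (SE 0.16), and GALNT18 at -0.25 (SE 0.14), with limma adjusted p of 0.263, 0.338 and 0.353. Their arrays did not overlap between the groups. All 5 probe sets of GALNT5, all 4 of GALNT2 and both of GALNT6 were negative. GALNT18 had a second probe set at 0.010, and the mean of both was -0.12. GALNT2, a broadly expressed enzyme, was at -0.15 (SE 0.18) on its main probe set and at -0.68 (SE 0.21) on another, so the size of its difference depended on the probe set. GALNT11 was at -0.097 (SE 0.17). GALNT10, a follow-up enzyme like GALNT7, was at -0.26 (SE 0.18, limma adjusted p = 0.430) and at -0.80 on a probe set with CD133+ signals of 3.31 and 3.83, at the lower end of the signals tested.

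GALNT1, also broadly expressed, stood out for its spread. Its log2 signals were 8.85 and 6.99 on the CD133+ arrays against 8.96 and 8.14 on the CD133- arrays. CD133+ replicate 2 thus lay far below the other 3. A second probe set shared this pattern, with 7.34 and 6.05 against 7.35 and 6.998. Another had 7.70 and 7.58 against 7.92 and 7.81, and yet another had 7.49 and 7.75 against 7.83 and 7.84, with no such drop. The last, whose mean signal was below the filter level, had a difference of 0.17. On the probe set with the highest signal the difference was -0.63 (SE 0.52, limma adjusted p = 0.525), and it was -1.56 without CD133+ replicate 1 (adjusted p = 0.00286) and 0.30 without CD133+ replicate 2. On CD133+ replicate 2 the 3' end of ACTB exceeded its 5' end by 1.92 on the log2 scale, a measure of how much shortened RNA is present. The excess was 0.71 on CD133+ replicate 1, 1.18 on CD133- replicate 1 and 0.92 on CD133- replicate 2. GAPDH did not set CD133+ replicate 2 apart, with 0.090 there and 0.097 on CD133+ replicate 1, and 0.017 and 0.026 on the CD133- arrays. The part of RNA length in the GALNT1 signal was not tested.

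None of the 5 positive GALNT differences passed. GALNT16 was at 0.37 (SE 0.21), with arrays that did not overlap. GALNT12, an enzyme of the colon linked to inherited colon cancer risk, was at 0.28 (SE 0.23), GALNT9 at 0.19 (SE 0.27), GALNT8 at 0.18 (SE 0.23) and GALNT17 at 0.089 (SE 0.17), all with overlapping arrays. The second GALNT12 probe set was at -0.19, and the mean of both at 0.049. GALNT13, a neural enzyme, GALNT14 and GALNT15 lay below the level tested, with signals from 3.13 to 3.84 on the 4 arrays.

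**Figure D3:**
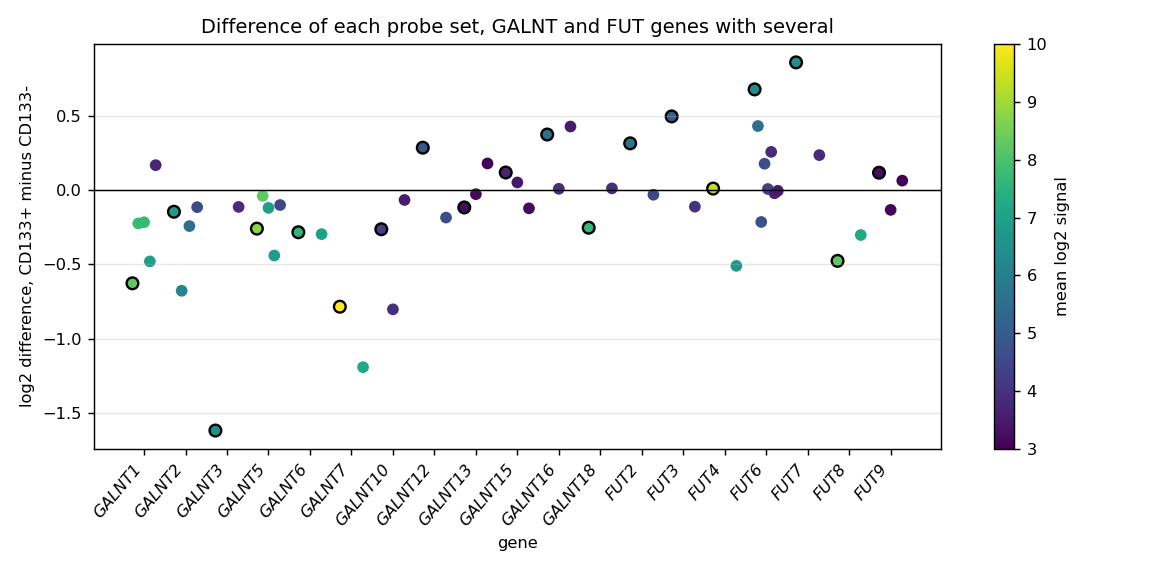
Log2 difference, CD133+ minus CD133- (y axis), of every probe set of the GALNT and FUT genes that have several (x axis), coloured by mean log2 signal, with the probe set used for the gene ringed in black. The 5 GALNT5 and 4 GALNT2 probe sets are all below 0, the GALNT3 pair differs (-1.62 and -0.11), and the 8 FUT6 probe sets run from -0.22 to 0.68.

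Core 1 synthesis showed no gene past the threshold. C1GALT1C1, the chaperone known as COSMC without which C1GALT1 is not active, had 8.72 and 8.82 on the CD133+ arrays against 9.08 and 8.82 on the CD133- arrays, and the nearest arrays were practically equal. Its difference was -0.18 (SE 0.13, limma adjusted p = 0.460). C1GALT1 was at -0.13 (SE 0.15, adjusted p = 0.654), with a 95% interval from -0.48 to 0.21, and its other 2 probe sets were at -0.23 and -0.28. Among genes that did not pass, neighbours were looked up for GALNT5 and C1GALT1 alone, a choice that no planned rule set. C1GALT1 lies on chromosome 7 among genes whose differences were mostly positive. Of its 10 nearest tested neighbours 9 were positive, with a median of 0.44, where 58.5% of all genes were positive. With deposited values 10 of 10 were positive (median 0.36, 54.1% of all genes). With centred arrays 9 of 10 were (median 0.28, 43.3% of all genes). INTS15 rose by 0.71 and MIOS by 0.67 (limma adjusted p = 0.0258 and 0.0214), where 3.65% of all genes passed.

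None of the 4 tested branching genes passed. GCNT2, which makes the branched I blood group antigen, had 6.69 and 6.68 on the CD133+ arrays against 7.36 and 6.996 on the CD133- arrays, with no overlap and the larger spread in CD133- cells. It was at -0.50 (SE 0.19, limma adjusted p = 0.194). GCNT3, the core 2 and core 4 enzyme of mucus-secreting cells, was at 0.38 (SE 0.22, adjusted p = 0.374), also without overlap. The core 2 enzyme GCNT1 was at -0.028 (SE 0.19) and GCNT7 at 0.060 (SE 0.19). GCNT4, another core 2 enzyme, lay below the level tested, at 4.02 on CD133+ replicate 1 and 3.39 to 3.54 on the other arrays.

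None of the 8 extension genes passed, and their differences had no common sign (5 positive, 3 negative). B3GNT2, the main polylactosamine enzyme, had 6.84 and 6.70 on the CD133+ arrays against 7.41 and 7.08 on the CD133- arrays, a difference of -0.48 (SE 0.19, limma adjusted p = 0.2). A second of its 3 probe sets, also above the filter level, was at -0.44 (SE 0.28). The third, whose mean signal of 3.43 was below that level, was at 0.35, and the mean of all was -0.19. B3GNT9 had 6.92 and 7.38 against 6.32 and 6.85, a difference of 0.57 (SE 0.24, adjusted p = 0.239). In both genes the arrays of the groups did not overlap. Leaving out CD133- replicate 1 gave 0.30 for B3GNT9 and -0.32 for B3GNT2, and leaving out CD133- replicate 2 gave 0.83 and -0.64. B3GNT5, which starts lacto-series glycolipids, had 8.29 and 8.41 against 8.49 and 8.31, with CD133+ and CD133- arrays interleaved, and a difference of -0.053 (SE 0.13, adjusted p = 0.851).

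B3GNT4 was at 0.60 (SE 0.29, limma adjusted p = 0.290), with overlapping arrays and values from 0.27 without CD133- replicate 1 to 0.93 without CD133- replicate 2. B3GNT6, the core 3 enzyme of normal colon, was at 0.26 (SE 0.21), B3GNT8 at 0.17 (SE 0.17), B3GNT3, which lengthens core 1, at 0.050 (SE 0.13), and B3GNT7 at -0.055 (SE 0.25). The second B3GNT6 probe set was at -0.15, and the mean of both at 0.059. The interval of B3GNT3, from -0.26 to 0.36, and that of B3GNT5, from -0.35 to 0.25, were the narrowest of the extension genes.

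None of the 6 ST3GAL genes passed. ST3GAL2, which sialylates core 1 and gangliosides, had 7.46 and 7.75 on the CD133+ arrays against 6.98 and 7.43 on the CD133- arrays, so the groups were just apart. Its difference was 0.40 (SE 0.20, limma adjusted p = 0.299), and 4 of its 5 probe sets were positive, from -0.26 to 0.70. It was at 0.18 without CD133- replicate 1 and at 0.63 without CD133- replicate 2. ST3GAL3, an enzyme of the sialyl Lewis pathway, was at 0.34 (SE 0.23, adjusted p = 0.438) with overlapping arrays, and all 7 of its probe sets were positive, from 0.23 to 0.49. ST3GAL4 and ST3GAL6, which serve the same antigens, were at 0.020 (SE 0.21) and 0.083 (SE 0.17). ST3GAL5, which makes the ganglioside GM3, was at -0.33 (SE 0.26), and ST3GAL1, the main core 1 enzyme of the family, at -0.027 (SE 0.17).

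None of the 4 tested ST6GALNAC genes passed either. ST6GALNAC4, which adds a sialic acid to GalNAc of already sialylated core 1, had 6.68 and 7.15 on the CD133+ arrays against 7.36 and 7.32 on the CD133- arrays. Both CD133+ arrays lay below both CD133- arrays, and the difference was -0.43 (SE 0.20, limma adjusted p = 0.271), with 3 of 4 probe sets negative and a mean over all 4 of -0.12. It was at -0.19 without CD133+ replicate 1 and at -0.66 without CD133+ replicate 2. ST6GALNAC6, an enzyme of gangliosides and disialyl Lewis a, was at 0.25 (SE 0.19), ST6GALNAC5 at 0.25 (SE 0.19) and ST6GALNAC2 at 0.29 (SE 0.22). Of the 3 probe sets of ST6GALNAC5, 2 were negative, at -0.41 and -0.15. ST6GALNAC1, the enzyme of the sialyl-Tn antigen, lay below the level tested on all 4 arrays, at 3.46 and 3.44 in CD133+ and 3.26 and 2.97 in CD133- cells, and ST6GALNAC3 lay between 3.09 and 3.37.

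Of the 8 tested FUT genes, 7 had positive differences and none passed, with a median of 0.27, where 58.5% of all genes were positive with a median of 0.058. The count of positive genes was 6 of 8 without further normalization (54.1% of all genes) and 5 of 8 with arrays centred on their medians (43.3% of all genes), and the medians were 0.26 and 0.18, against 0.028 and -0.051 over all genes. FUT7, the leukocyte enzyme of sialyl Lewis x, had 6.65 and 7.05 on the CD133+ arrays against 5.77 and 6.21 on the CD133- arrays. Both CD133+ arrays lay above both CD133- arrays, and the arrays within each group also differed from each other. The difference was 0.86 (SE 0.24, limma adjusted p = 0.0967), and the second FUT7 probe set was at 0.23 (SE 0.16).

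FUT3, FUT5 and FUT6 are closely similar Lewis fucosyltransferases that lie side by side on chromosome 19, and their probes may detect more than 1 of them. FUT6 had 6.47 and 6.87 against 5.73 and 6.25, a difference of 0.68 (SE 0.25, limma adjusted p = 0.180), and 5 of its 8 probe sets were positive, with a mean over all of 0.16. Without 1 array at a time FUT6 ran from 0.42 (CD133- replicate 1) to 0.93 (CD133- replicate 2). FUT3 had 5.28 and 5.29 against 4.71 and 4.87, a difference of 0.49 (SE 0.20, adjusted p = 0.209). Its second probe set was at -0.11, and the mean of both at 0.19. FUT5 was at 0.23 (SE 0.25). In FUT3 and FUT6 the arrays of the groups did not overlap, in FUT5 they did.

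FUT8, which adds the core fucose of N-glycans, was the 1 negative FUT gene, with 7.97 and 7.995 on the CD133+ arrays against 8.42 and 8.503 on the CD133- arrays. The replicates agreed closely and the groups lay well apart. The difference was -0.48 (SE 0.13, limma adjusted p = 0.0819), and the second probe set was at -0.30 (SE 0.21). FUT4, a Lewis x enzyme, had 9.33 and 9.39 against 9.38 and 9.31, so close that the groups interleaved, a difference of 0.0090 and a 95% interval from -0.22 to 0.24. Its second probe set was at -0.51 (SE 0.17), so the FUT4 probe sets did not show the same difference. The H antigen enzymes FUT1 and FUT2 were at 0.23 (SE 0.18) and 0.31 (SE 0.23), and FUT9, a neural Lewis x enzyme, lay below the level tested, between 3.05 and 3.32. The second FUT2 probe set was at -0.032, and the mean of both at 0.14.

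**Figure D4:**
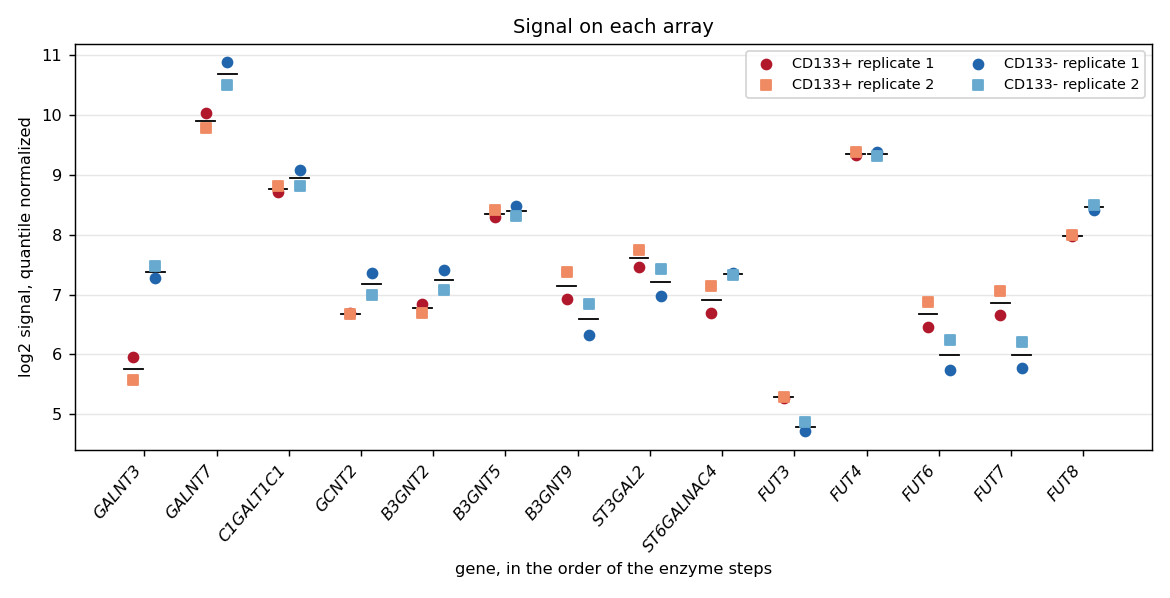
Quantile normalized log2 signal (y axis) of 14 genes (x axis, by enzyme step) on each of the 4 arrays, with group means as lines. These are the genes with an unadjusted p under 0.05 and the gene with the highest signal in each step. In GALNT3 the CD133+ arrays are at 5.95 and 5.57 and the CD133- arrays at 7.28 and 7.48, and in FUT4 all 4 coincide near 9.35.

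The genes that supply sugars, extend chains by galactose or carry the glycans were followed as further lists. Of 13 tested galactosyl and related transferases, 1 rose and 0 fell (7.69% passed, against 3.65% of all genes). A positive difference was found in 12, where 58.5% of all genes were positive, with a median of 0.30 against 0.058 over all genes. The count of positive genes was 11 of 13 without further normalization (54.1% of all genes) and 9 of 13 with centred arrays (43.3% of all genes). The medians were then 0.15 and 0.068 against 0.028 and -0.051 over all genes. B3GALT6, which builds the linker between proteoglycans and their chains, had 9.64 and 9.77 on the CD133+ arrays against 9.03 and 9.21 on the CD133- arrays, and rose by 0.59 (SE 0.11, limma adjusted p = 0.0314). The call was lost with deposited values (0.52, adjusted p = 0.0512), with centred arrays (0.44, adjusted p = 0.135), when its probe sets were averaged (0.37, adjusted p = 0.203), and on leaving out CD133- replicate 1 (0.50, adjusted p = 0.239) or CD133- replicate 2 (0.68, adjusted p = 0.051). B3GALT5, which prepares type 1 chains for Lewis a, was at 0.59 (SE 0.13, adjusted p = 0.0534), and B4GALT1, the main galactosyltransferase of type 2 chains, at 0.74 (SE 0.19, adjusted p = 0.0692).

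Of 10 tested genes of sialic acid supply, other sialyltransferases and sialidases, 1 fell and 0 rose (10% passed, against 3.65% of all genes). GNE, the rate-limiting enzyme of sialic acid synthesis, had 6.27 on both CD133+ arrays. In CD133- cells it had 7.33 and 7.08, and it fell by 0.93 (SE 0.19, limma adjusted p = 0.0378). Both CD133- arrays lay clear above. The call was lost whichever array was left out, the adjusted p running from 0.0522 without CD133- replicate 2 to 0.228 without CD133- replicate 1 and the difference from -1.06 to -0.81. The next enzymes of the same route did not share 1 direction. NANS, the sialic acid synthase, was at 0.38 (SE 0.088, adjusted p = 0.0592), NANP, its phosphatase, at -0.45 (SE 0.13, adjusted p = 0.102), and CMAS, which activates sialic acid with CMP, at -0.41 (SE 0.12, adjusted p = 0.0992).

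The 9 genes of other fucose steps (supply, removal and the transferases POFUT1 and POFUT2) did not pass. Nor did the 14 genes of the nucleotide sugar list, which also held OGT and OGA. Medians of these lists were -0.021 and 0.0073. Of 11 tested sulfation and acetylation genes 1 fell and 0 rose (9.09% passed, against 3.65% of all genes). CHST3, a sulfotransferase of chondroitin sulfate, had 5.48 and 5.41 on the CD133+ arrays against 6.88 and 6.93 on the CD133- arrays, and fell by 1.46 (SE 0.20, limma adjusted p = 0.0124). Its other 2 probe sets were at -0.81 (SE 0.25) and 0.37 (SE 0.23), and the mean of all 3 did not pass (-0.63, adjusted p = 0.121). Of 14 tested mucins and other carriers of O-glycans, 14.3% passed, against 3.65% of all genes. The membrane mucin MUC13 rose (0.97, SE 0.16) and the hyaluronan receptor CD44 fell (-1.21, SE 0.18), with limma adjusted p of 0.0209 and 0.0163. The MUC13 adjusted p was 0.0720 with deposited values, 0.111 with centred arrays, 0.0509 when CD133+ replicate 1 was left out and 0.0912 when CD133- replicate 1 was. That of CD44 was 0.0773 without CD133- replicate 1 and 0.114 with the mean of its probe sets.

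**Figure D5:**
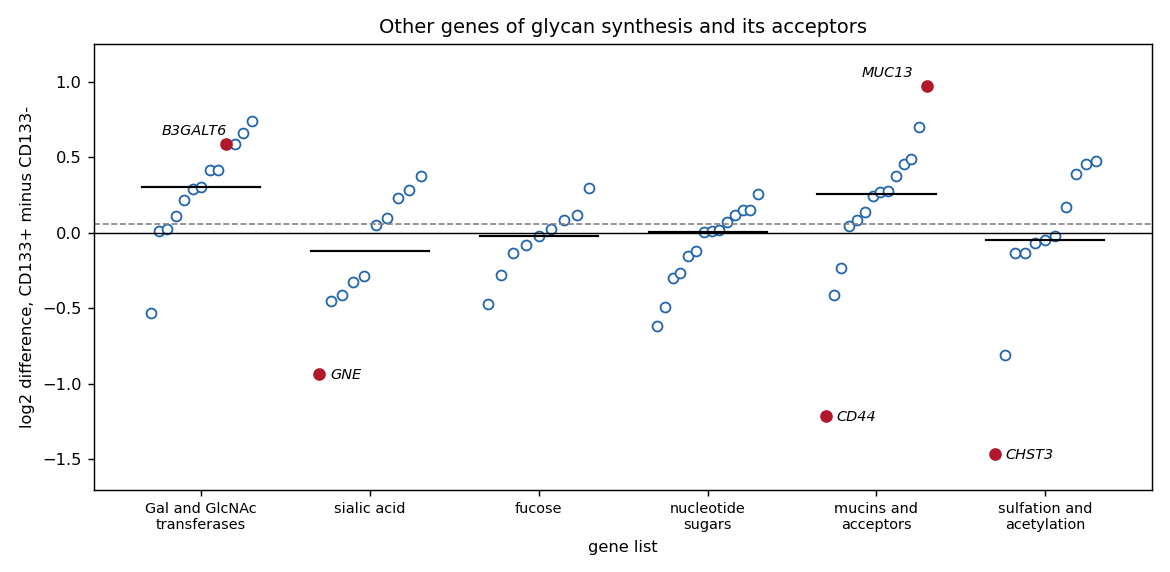
Log2 difference, CD133+ minus CD133- (y axis), of the tested genes of 6 further lists (x axis), each list sorted by difference and with its median as a line. Filled and named points passed a limma adjusted p under 0.05, and the dashed line is the median of all genes at 0.058. After quantile normalization the first list lies above 0 except for 1 gene (4 genes with centred arrays), and CHST3 at -1.46 is the lowest point.

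For the series as a whole, deposited array medians ran from 4.45 to 4.596. PROM1, which checks the labels, had 8.46 and 8.73 in CD133+ and 3.31 and 3.35 in CD133- cells. All 9 epithelial markers were above the level filter and none passed in limma. Of the leukocyte markers PTPRC, and of the endothelial markers CDH5 and KDR, lay below the filter. Summed on the linear scale and given as log2, the leukocyte markers ran from 7.84 to 7.99 in CD133+ and 7.89 to 7.96 in CD133- cells, the fibroblast markers from 8.26 to 8.43 and 8.37 to 8.44, and the endothelial markers from 6.90 to 7.18 and 6.77 to 7.002.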

How the data were processed

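The deposited values were log2 signals, 1 per probe set and array (54675 probe sets, 62 of them Affymetrix controls), which per the submitters' processing notes came from Affymetrix Expression Console. Background correction and normalization are not given in the sources used here. Array medians differed by 0.144, so the arrays, without the control probe sets, were quantile normalized, which removes any true difference in overall signal.

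Probe sets naming 1 gene in the platform annotation (41091) gave 19777 genes, of which 19735 matched RefSeq (GRCh38.p14) by gene ID. GALNT4, whose probe sets name several genes, was left out. The comparison used limma 3.58.1 (lmFit, eBayes with a trend on level) under R 4.3.3, with Benjamini-Hochberg adjustment over 15821 genes. With 2 arrays a group, an exact permutation test of 1 gene cannot go below p = 0.333 (two-sided), so calls rest on variance shared across genes (6.17 prior degrees of freedom). Precision is limited by the few arrays (median SE 0.178).

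Every member was to be named. Those with an unadjusted p under 0.05 and the one with the highest signal per step were given array by array. GALNT1 and several probe-set values were added after their values were seen. Members and lists were chosen with earlier results of these data known. The fit was also run on simulated data with independent noise on each array. In the real data the deviations of same-numbered arrays correlated (r = 0.429), so that run does not check the p-values given here. Promoter motifs were searched in Python 3.11.15.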

Additional observations from a re-analysis of the deposited data

How the results depend on the processing

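GALNT3 and GALNT7 were the genes of the family that passed with deposited values, with centred arrays, with no filter on level, with a filter at the median level and with robust settings. Without a trend of variance on level 12 genes passed in all and 0 of the family (GALNT3 had an adjusted p of 0.0597, GALNT7 0.129, and 9 of the family had an unadjusted p under 0.05 in the trend fit). Of the further lists, B3GALT6, GNE, CHST3, MUC13 and CD44 did not pass without that trend either. Their limma adjusted p were 0.132, 0.0781, 0.0506, 0.0773 and 0.0597. With the mean of probe sets 247 passed in all and 1 of the family, GALNT3. At an adjusted p under 0.01 these counts were 50 and 0. Leaving out 1 array gave 124 (without CD133- replicate 1) to 706 genes and 1 to 3 of the family. Fitting all probe sets one by one, an alternative chosen after seeing the data, gave GALNT3 an adjusted p of 0.0464 and GALNT7 0.0942. Of the genes called, 35.9% were higher in CD133+ cells, 21.3% with deposited values and 11.3% with centred arrays.

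The replicate number as a block gave 3030 genes in all and 10 of the family (B3GNT2, B3GNT4, B3GNT9, FUT6, FUT7, FUT8, GALNT3, GALNT7, GCNT2 and ST3GAL2, 5 higher and 5 lower). The arrays share only a number in the labels. The deviations of same-numbered arrays from their group means correlated across genes with r = 0.429, and the block leaves 1 degree of freedom among the arrays.

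Signs turned in genes that were far from the threshold in the main fit. In the values as deposited these were B3GNT3 (-0.10), B3GNT7 (0.034), FUT4 (-0.051), GCNT1 (0.046), ST3GAL1 (0.063) and ST3GAL4 (-0.027). With centred arrays they were B3GNT3 (-0.18), FUT1 (-0.024), FUT4 (-0.13) and ST3GAL4 (-0.11), and with the mean of probe sets B3GNT5 (0.00065), FUT4 (-0.25), GCNT1 (0.044), ST3GAL1 (0.084) and ST6GALNAC5 (-0.10). Leaving out 1 array at a time gave these ranges that cross 0.
B3GNT3 ran from -0.011 to 0.11, B3GNT5 ran from -0.14 to 0.035, B3GNT7 ran from -0.33 to 0.22, FUT4 ran from -0.026 to 0.044, FUT5 ran from -0.073 to 0.52, GALNT1 ran from -1.56 to 0.30, GALNT11 ran from -0.24 to 0.048, GALNT8 ran from -0.13 to 0.48, GALNT9 ran from -0.10 to 0.49, GCNT1 ran from -0.12 to 0.064, GCNT7 ran from -0.14 to 0.26, ST3GAL1 ran from -0.16 to 0.10, ST3GAL4 ran from -0.13 to 0.17, ST3GAL6 ran from -0.013 to 0.18 and ST6GALNAC2 ran from -0.011 to 0.59. The cause of these changes was not tested. In the main limma fit, the intervals of these genes ran from negative to positive values. With 2 arrays a group, their differences could thus not be told from no change.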
